A study of Mus musculus with 32 samples.

Results

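Heme oxygenase, NRF2 target and metallothionein genes form a defence against free heme, oxidants and metal ions, and 10 of them were followed here in brain tissue and in sorted macrophages after stroke. The members were found by gene symbol in both count tables, which list 33280 genes each, and all 10 passed the filter on low counts in both, where 18968 genes were tested in tissue and 18297 in the sorted cells. They are Hmox1, Nfe2l2, Nqo1, Gclc, Gclm, Txnrd1, Srxn1, Slc7a11, Mt1 and Mt2. Wild-type mice received BLZ945, an inhibitor of the receptor CSF1R on which microglia and border macrophages depend, at 200 mg per kg body weight, or vehicle (CTL), daily for 7 days. At 8 weeks after treatment an artery of 1 hemisphere was blocked with thrombin. Samples were taken 1 day after stroke from the lesioned (ipsilateral) and the opposite (contralateral) hemisphere of 8 mice, 4 CTL (A2, A3, A4 and B1) and 4 BLZ945 (C2, C3, C4 and D1). From each hemisphere, whole tissue and sdCAMs, the CD206-positive macrophages of the brain borders without the choroid plexus, were profiled by bulk RNA-seq, which gave 32 libraries. All mice had a stroke and no unoperated mice were in these groups, so the contralateral hemisphere is the only reference for the lesion.

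Hmox1 encodes the inducible enzyme that opens the heme ring and releases iron, carbon monoxide and biliverdin. Nfe2l2 encodes NRF2, a transcription factor that is degraded through KEAP1 in unstressed cells and that, once stabilised by oxidants, binds antioxidant response elements of its target genes, while BACH1 competes for such elements and is released by heme. Among the targets, Slc7a11 imports cystine, Gclc and Gclm form the enzyme that starts glutathione synthesis, Txnrd1 and Srxn1 keep thioredoxin and peroxiredoxins reduced, and Nqo1 reduces quinones. Mt1 and Mt2 encode small proteins that hold zinc and copper and whose genes respond to metals, glucocorticoids and cytokines. In the brain, metallothioneins are made mainly by astrocytes and also by vessel and choroid plexus cells. Hmox1 is induced in macrophages that take up heme, though not in these cells alone.

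Tissue libraries held 9288717 to 12781505 counts, and the sdCAM libraries used held 7397393 to 11081409. The 2 sdCAM libraries labelled as degraded, ipsilateral A3 and C2, held 54055 and 55155 counts and were left out, so ipsilateral sdCAMs had 3 libraries per treatment. For the tissue of CTL mouse A3, the sample titles and the column names of the count table gave opposite hemispheres, and the titles were followed. With the titles, Hmox1 in A3 was at 6.97 CPM contralaterally and 46.0 CPM ipsilaterally, within the ranges of the other mice (5.47 to 9.51 and 29.3 to 86.6 CPM). Hmox1 is itself compared between the hemispheres below, so these levels cannot settle which labelling is right. In sdCAM libraries the summed level of 8 microglia markers ran from 7754 to 29769 CPM (read counts relative to the library total after TMM scaling), and that of 10 border macrophage markers from 1658 to 10469 CPM. In each of these 14 libraries, labelled as CAMs, the microglia sum was above the border macrophage sum. In tissue the border macrophage sum was between 21.4 and 44.1 CPM. The library kit does not keep strand, and 432 bases of Mt2 overlap the antisense gene Gm45774 in GENCODE M21, so reads of these genes cannot be told apart.

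RefSeq promoters (build GRCm38.p6) were given for 8 of the 10 members, and the 250 bases before the start were searched on both strands for the core of the antioxidant response element, TGACNNNGC, for the core of the metal response element, TGCACNC or TGCGCNC, and for the AP-1 core TGANTCA, which overlaps an antioxidant element that reads TGACTCAGC. These letters occurred in 10.2%, 21.4% and 6.75% of 32851 promoters of the same length. Promoters of both metallothioneins are shown because these genes rose in tissue and fell in sdCAMs, and those of Srxn1 and Txnrd1 because these genes rose in tissue in both treatments. In Mt2 (chr8:94172368-94172617, plus strand) and Mt1 (chr8:94178839-94179088, plus strand) capitals mark the metal response core, with 3 and 1 matches.
Mt2: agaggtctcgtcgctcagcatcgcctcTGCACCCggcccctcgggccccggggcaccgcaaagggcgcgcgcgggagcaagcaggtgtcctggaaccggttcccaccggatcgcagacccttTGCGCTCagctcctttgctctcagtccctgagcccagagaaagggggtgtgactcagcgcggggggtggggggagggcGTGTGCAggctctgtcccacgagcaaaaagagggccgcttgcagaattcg
Mt1: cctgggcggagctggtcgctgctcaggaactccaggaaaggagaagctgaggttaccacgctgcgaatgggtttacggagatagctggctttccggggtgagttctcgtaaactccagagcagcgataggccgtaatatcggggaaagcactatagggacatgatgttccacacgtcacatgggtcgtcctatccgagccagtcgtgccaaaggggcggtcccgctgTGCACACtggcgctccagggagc
The Mt2 window also held 1 antioxidant response core, from 79 to 71 bases before the start. In Srxn1 (chr2:152105274-152105523, plus strand) capitals mark 2 AP-1 cores, and in the Txnrd1 window with a match, 1 of 3 for this gene (chr10:82858956-82859205, plus strand), capitals mark 1 antioxidant response core.
Srxn1: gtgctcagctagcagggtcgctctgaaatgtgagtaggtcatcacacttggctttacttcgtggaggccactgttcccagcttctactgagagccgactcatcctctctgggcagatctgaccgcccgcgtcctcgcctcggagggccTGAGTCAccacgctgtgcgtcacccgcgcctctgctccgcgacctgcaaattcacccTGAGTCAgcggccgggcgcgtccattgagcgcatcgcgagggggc
Txnrd1: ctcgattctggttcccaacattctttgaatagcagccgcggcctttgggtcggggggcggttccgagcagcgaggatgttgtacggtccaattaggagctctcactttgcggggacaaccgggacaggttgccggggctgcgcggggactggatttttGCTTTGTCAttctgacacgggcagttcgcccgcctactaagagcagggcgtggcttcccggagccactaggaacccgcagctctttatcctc
Windows of Nfe2l2 and Gclm held 1 antioxidant response core each, that of Gclm also 2 metal response cores, and that of Srxn1 also 1. In the windows of Nqo1 and Slc7a11 the letters of the 3 motifs were not found. Near forms were not counted. The Srxn1 AP-1 core nearer the start reads on to TGAGTCAGC, which differs from the antioxidant response core searched by 1 letter.

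Per length, Mt1 had the highest mean level of the members in contralateral CTL tissue and sdCAMs, while Mt2 came next in tissue and after Nfe2l2 and Hmox1 in sdCAMs. In contralateral CTL tissue the mean level per kb of exon was 146 CPM per kb for Mt1, 61.2 for Mt2 and 44.9 for Srxn1, against 3.47 for Hmox1 and 2.42 for Slc7a11. In contralateral CTL sdCAMs it was 304 CPM per kb for Mt1, 80.0 for Nfe2l2, 65.7 for Hmox1 and 59.4 for Mt2, against 2.63 for Slc7a11. Exon lengths were taken from GENCODE M21, which may differ from the annotation used for counting. Tissue and sdCAM tables were scaled separately, so levels set across them are a description.

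To ask how the lesioned hemisphere differed, ipsilateral tissue was compared with contralateral tissue. Hmox1 rose in the ipsilateral tissue of both treatments, the largest change among the members. Contralateral levels were 5.47, 6.97, 6.19 and 5.64 CPM in CTL mice A2, A3, A4 and B1 and 6.54, 9.51, 7.63 and 6.55 CPM in BLZ945 mice C2, C3, C4 and D1. Ipsilateral levels were 29.3, 46.0, 38.5 and 57.8 CPM in the same CTL mice and 62.6, 69.1, 40.4 and 86.6 CPM in the same BLZ945 mice. Every ipsilateral library was above every contralateral one, and the log2 fold change was 2.82 ± 0.23 (SE) in CTL and 3.10 ± 0.23 in BLZ945, with adjusted p of 9.56e-06 and 2.1e-06 by edgeR. In the mean of both treatments, which weights the treatments equally, Hmox1 was 7.77-fold higher. Markers of border macrophages, monocytes and neutrophils also had higher median sums ipsilaterally. Those of T and NK cells (median 6.94 CPM contralaterally and 5.26 CPM ipsilaterally) and of red blood cells (5.05 and 4.93 CPM) did not, with no marker called. Microglia markers had a median sum of 804 CPM contralaterally and 743 CPM ipsilaterally, with 2 of 8 called lower in the mean of both treatments. Border macrophage markers were between 21.4 and 31.7 CPM contralaterally and between 31.5 and 44.1 CPM ipsilaterally, with 1 of 10 called higher in the mean of both treatments. Monocyte markers went from 0.0925 to 1.07 CPM to 0.902 to 6.33 CPM (1 of 6 called), and neutrophil markers from 0.107 to 1.40 CPM to 0.547 to 4.04 CPM (1 of 3 called). Ly6c2 and Ms4a4c were at 0 throughout contralateral CTL tissue, Ly6g was at 0 there and in 2 other groups, and Folr2 was at 0 in ipsilateral CTL tissue. The part of these cells in the rise of Hmox1 was not tested.

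**Figure D1:**
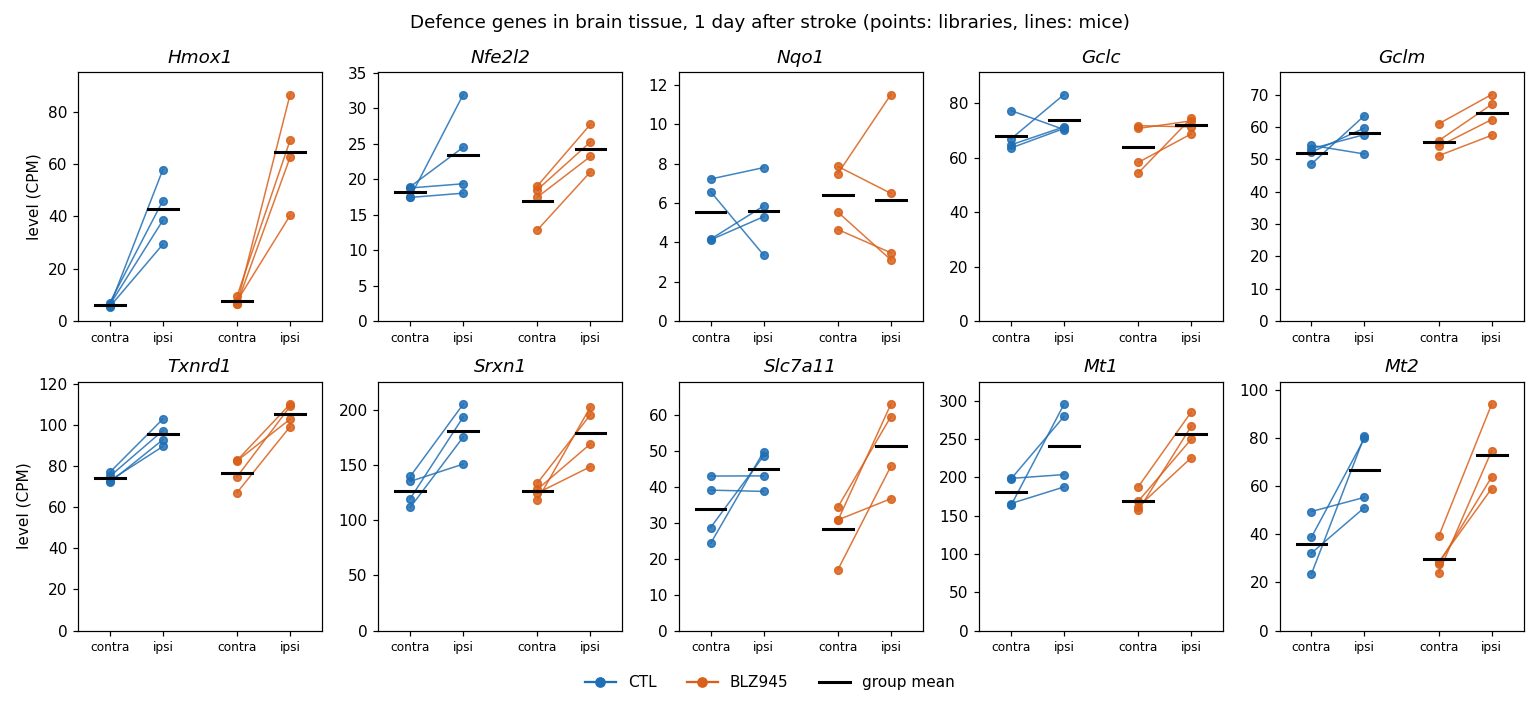
Level in CPM (linear axes from 0) of the 10 members in 16 tissue libraries, with points for libraries, lines joining the hemispheres of a mouse and black bars for group means. All 8 mice had more Hmox1, Mt1, Mt2, Txnrd1, Srxn1 and Nfe2l2 on the ipsilateral side, and Nqo1 was higher there in 4 of 8.

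Among the NRF2 targets of the thioredoxin system, Txnrd1 and Srxn1 also rose in both treatments, by less than Hmox1. Txnrd1 was at 72.1, 72.9, 75.0 and 76.9 CPM in contralateral CTL tissue and at 92.8, 89.5, 97.2 and 103 CPM in ipsilateral CTL tissue. In BLZ945 mice it was at 74.8, 67.1, 82.5 and 82.8 CPM contralaterally and at 109, 99.2, 103 and 110 CPM ipsilaterally. The hemispheres did not overlap in either treatment, and the log2 fold change was 0.36 ± 0.07 in CTL (adjusted p = 0.0332) and 0.45 ± 0.07 in BLZ945 (adjusted p = 0.00332). Srxn1, which repairs overoxidised peroxiredoxins, went from 127 ± 13.2 (SD, n = 4) to 181 ± 23.7 CPM in CTL and from 126 ± 6.46 to 179 ± 24.99 CPM in BLZ945. Its log2 fold change was 0.52 ± 0.11 (adjusted p = 0.0426) and 0.51 ± 0.11 (adjusted p = 0.0248), again without overlap.

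Both metallothionein genes were higher on the ipsilateral side of every mouse, and passed the test in BLZ945 and in the mean of both treatments. Mt2 was at 49.5, 38.8, 32.2 and 23.5 CPM in contralateral and 55.4, 79.8, 51.1 and 80.7 CPM in ipsilateral CTL tissue. In BLZ945 tissue it was at 39.1, 24.04, 27.6 and 28.5 CPM contralaterally and at 94.1, 74.7, 63.8 and 59.0 CPM ipsilaterally. These groups did not overlap, with a log2 fold change of 1.29 ± 0.22 in BLZ945 (adjusted p = 0.0046) and 0.89 ± 0.22 in CTL (adjusted p = 0.112). With the mouse as a replicate block, Mt2 also passed in CTL (log2 fold change 0.90, adjusted p = 0.00553, within a range of 0.00553 to 1 over 17 alternatives). Mt1 went from 169 ± 13.6 to 257 ± 25.4 CPM in BLZ945, a log2 fold change of 0.61 ± 0.13 (adjusted p = 0.0245), and from 181 ± 19.5 to 242 ± 53.9 CPM in CTL, 0.41 ± 0.13 (adjusted p = 0.383). The Mt1 call in BLZ945 was lost without C2, C3, C4 or D1, with adjusted p up to 0.133. Summed astrocyte markers, from the main metallothionein-producing cells, were between 4086 and 5089 CPM contralaterally and between 4074 and 5369 CPM ipsilaterally, with 1 of 6 called higher in the mean of both treatments. Endothelial markers were between 205 and 271 CPM contralaterally and between 226 and 330 CPM ipsilaterally, with 2 of 6 called higher. Choroid plexus markers were between 278 and 4248 CPM contralaterally (median 795) and between 209 and 6097 CPM ipsilaterally (median 297), with none of 5 called. They were uneven within mice, at 4248 CPM contralaterally and 325 CPM ipsilaterally in D1, and at 3693 and 6097 CPM in C2. The part of these cells in the rise of Mt1 and Mt2 was not tested.

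Nfe2l2 and the cystine importer Slc7a11 passed only when both treatments were averaged. Nfe2l2 was at 17.4, 18.95, 18.8 and 17.5 CPM contralaterally and 18.04, 24.5, 19.4 and 31.97 CPM ipsilaterally in CTL, and at 19.1, 12.9, 17.5 and 18.5 against 27.8, 21.1, 23.2 and 25.3 CPM in BLZ945. The hemispheres overlapped in CTL and did not in BLZ945. Its log2 fold change was 0.44 ± 0.11 in the mean of both treatments (adjusted p = 0.0432). Slc7a11 was at 30.6, 16.9, 30.8 and 34.4 CPM in contralateral and 63.0, 45.7, 36.7 and 59.5 CPM in ipsilateral BLZ945 tissue. In CTL it was between 24.2 and 43.0 CPM contralaterally and between 38.7 and 49.8 CPM ipsilaterally, which overlapped. It had a log2 fold change of 0.64 ± 0.15 in the mean of both treatments (adjusted p = 0.0268). With the mouse as a replicate block both also passed in BLZ945 alone, at adjusted p of 0.0217 for Nfe2l2 and 0.00419 for Slc7a11, against ranges of 0.0217 to 0.486 and 0.00419 to 0.315 over 17 alternatives each. Leaving out a mouse ended the call of Nfe2l2 for 6 of 8 mice (all but A2 and A4) and that of Slc7a11 for 4 of 8 (A4, B1, C2 and D1), with adjusted p up to 0.145 and 0.118.

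The remaining NRF2 targets did not pass the test in tissue. Gclc had log2 fold changes of 0.12 ± 0.09 in CTL and 0.18 ± 0.09 in BLZ945, and Gclm, its regulatory partner, had 0.16 ± 0.08 and 0.21 ± 0.08. The quinone reductase Nqo1 was between 3.11 and 11.5 CPM over all 16 libraries, with hemispheres that overlapped and a log2 fold change of -0.02 ± 0.26 in the mean of both treatments (adjusted p = 0.99).

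By count, 3 members were higher in CTL (Hmox1, Txnrd1 and Srxn1) where 0.485% of all genes tested were, 5 in BLZ945 (with Mt1 and Mt2) where 1.26% were, and 7 in the mean of both treatments where 2.53% were. No member was lower, against 0.00527%, 0.1% and 0.517% of all genes. The median log2 fold change of the 10 members was 0.39 in CTL and 0.51 in BLZ945, beside -0.01 and -0.00 over all genes. Exchange of the hemispheres of A3, as the column names have them, left 0 members called in each of these comparisons (Hmox1 in BLZ945 kept a log2 fold change of 3.10 and then had adjusted p = 0.0879, within a range of 5.51e-36 to 0.0879, since the exchange of a CTL mouse enters the shared estimate of the spread), and without A3 there were 1, 5 and 6. The count was 1 (Hmox1) in CTL without A2, B1 or C2 as well, and in BLZ945 it was 2 without C2 and 3 without C3 or D1.

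**Figure D2:**
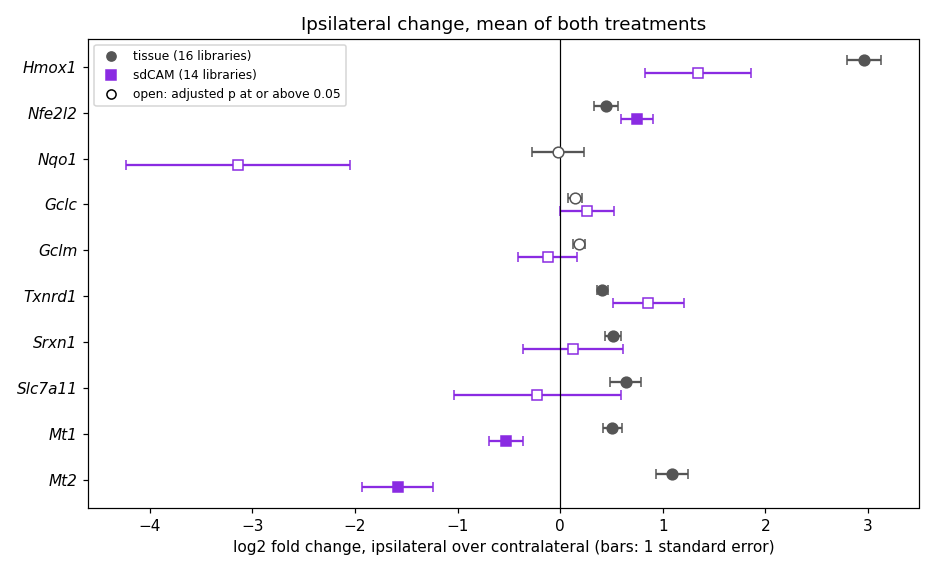
Log2 fold change, ipsilateral over contralateral, in the mean of both treatments for tissue (circles, 16 libraries) and sdCAMs (squares, 14 libraries), with bars of 1 standard error and filled symbols where the adjusted p was under 0.05. Mt1 and Mt2 lie to the right of 0 in tissue and to the left in sdCAMs, and Nfe2l2 lies to the right in both, although its sdCAM value was negative, yet above the median of all genes, when counts were scaled to border macrophage markers.

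Of 86 other genes of the pathway tested in tissue, 2 were higher in CTL, 5 in BLZ945 and 10 in the mean of both treatments, and none was lower, beside the shares of all genes given above. In the mean of both, 3 of 18 heme and iron genes, 2 of 7 quinone and aldehyde detoxification genes, 2 of 12 NRF2 regulators, 2 of 20 glutathione genes and 1 of 8 metallothionein and zinc genes were called. Lcn2, a binder of iron-carrying siderophores, was at 10.9 CPM ipsilaterally and 1.77 contralaterally in the mean of both (log2 fold change 2.61 ± 0.36), and Slc11a1, an iron transporter of phagocytes, was at 6.42 and 3.07 CPM (1.04 ± 0.165). Ftl1, the ferritin light chain that stores iron, had 0.44 ± 0.08, the zinc and iron importer Slc39a14 had 0.40 ± 0.07, and the NRF2 target Osgin1 had 1.44 ± 0.28. Within BLZ945 mice, the repressor Bach1 was higher in ipsilateral than in contralateral tissue, by 0.55 ± 0.12 on the log2 scale (adjusted p = 0.0287). The median log2 fold change of the 86 genes in the mean of both treatments was 0.04, against -0.01 over all genes. Fewer cells of a type and less RNA per cell cannot be told apart in these bulk samples.

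In sdCAMs the members went in different directions. Nfe2l2 rose, relative to all genes, in ipsilateral sdCAMs, from 378, 222, 283 and 331 CPM in contralateral CTL mice A2, A3, A4 and B1 to 351, 522 and 484 CPM in ipsilateral A2, A4 and B1. In BLZ945 mice it went from 248, 217, 271 and 348 CPM (C2, C3, C4 and D1) to 527, 566 and 445 CPM (C3, C4 and D1). The hemispheres did not overlap in BLZ945 and did in CTL, where A2 alone was lower ipsilaterally. The log2 fold change was 0.92 ± 0.22 in BLZ945 (adjusted p = 0.024), 0.58 ± 0.22 in CTL (adjusted p = 0.177) and 0.75 ± 0.15 in the mean of both treatments (adjusted p = 0.00465). The BLZ945 value did not pass with the mouse as a replicate block (0.89, adjusted p = 0.0558, range 0.00176 to 0.86 over 18 alternatives), nor without C2, C3 or C4 (adjusted p up to 0.157), which left 0 members called. The call in the mean of both held under the block (adjusted p = 0.0277) and without each mouse in turn (0.00317 to 0.0288). Scaled to 10 border macrophage markers instead, an alternative chosen after seeing the data, the value was -0.39 in the mean of both treatments. The median of all genes was then at -1.35 in place of -0.16, so that Nfe2l2 stood 0.96 above that median, against 0.91 with TMM. A scaling moves a gene and that median by about the same amount, so the distance between them is no test of the scaling.

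**Figure D3:**
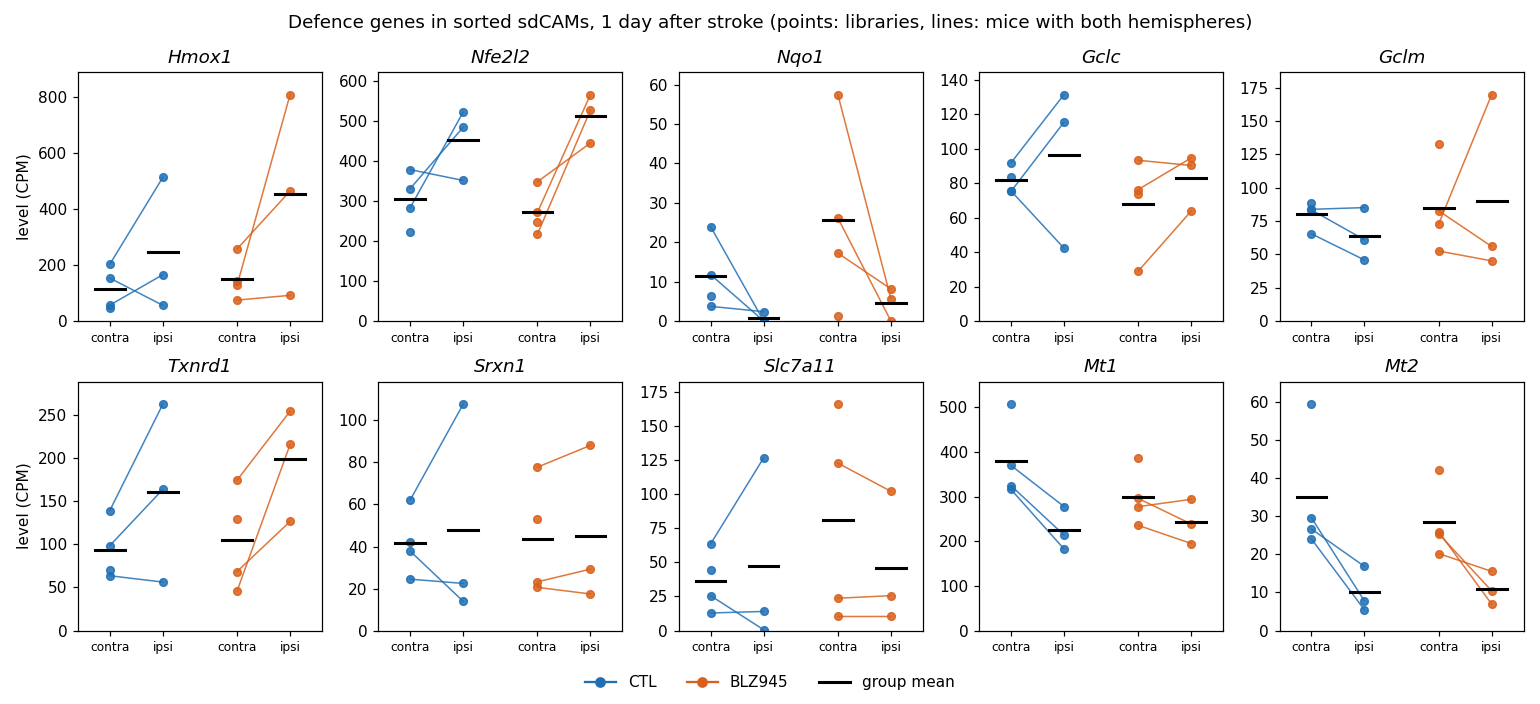
Level in CPM (linear axes from 0) of the 10 members in 14 sdCAM libraries, with points for libraries, lines joining the hemispheres of a mouse and black bars for group means. Mt2 was lower on the ipsilateral side of all 6 mice with both libraries, and Hmox1 and Nfe2l2 were higher there in 5 of 6 by TMM-scaled levels.

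Hmox1 in sdCAMs spread too widely to pass. Contralateral levels were 153, 47.8, 56.5 and 203 CPM in CTL mice A2, A3, A4 and B1 and 144, 74.5, 127 and 257 CPM in BLZ945 mice C2, C3, C4 and D1. Ipsilateral levels were 55.8, 165 and 513 CPM in A2, A4 and B1 and 91.5, 809 and 464 CPM in C3, C4 and D1. The hemispheres overlapped in both treatments, with A2 lower ipsilaterally and the other 5 mice with both libraries higher, and the log2 fold change was 1.34 ± 0.52 in the mean of both treatments (adjusted p = 0.0872). Without A2 it was called (adjusted p = 0.049, within 0.049 to 0.705 over 17 alternatives).

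Metallothionein levels fell in ipsilateral sdCAMs. Mt2 was at 29.6, 59.4, 24.1 and 26.7 CPM in contralateral CTL libraries and at 7.78, 5.45 and 16.8 CPM in ipsilateral A2, A4 and B1. In BLZ945 it was at 42.0, 25.9, 25.4 and 20.2 CPM contralaterally and at 6.95, 10.4 and 15.5 CPM ipsilaterally in C3, C4 and D1. The hemispheres did not overlap in either treatment, and the log2 fold change was -1.80 ± 0.50 in CTL (adjusted p = 0.0671), -1.37 ± 0.49 in BLZ945 (adjusted p = 0.117) and -1.58 ± 0.35 in the mean of both (adjusted p = 0.00666). Mt1 went from 379 ± 88.3 (n = 4) to 225 ± 48.3 CPM (n = 3) in CTL and from 299 ± 63.2 to 242 ± 49.6 CPM in BLZ945, a log2 fold change of -0.53 ± 0.17 in the mean of both (adjusted p = 0.0416). Its hemispheres overlapped in BLZ945 and did not in CTL. Under 4 scalings, that to border macrophage markers included, Mt2 stood between -1.42 and -1.69 and Mt1 between -0.37 and -0.47 relative to the median of all genes. These distances hardly depend on the scaling, which moves all genes about alike, so they are no test of it. With the mouse as a replicate block, over the 6 mice with both libraries, neither passed: Mt2 had -1.38 (adjusted p = 0.0526) and Mt1 had -0.38 (adjusted p = 0.0959), against ranges of 1.77e-05 to 0.0526 and 0.00288 to 0.333 over 17 alternatives. Mt2 was called without each mouse in turn, whereas Mt1 was called only without B1 and without D1, and its adjusted p reached 0.108 without C3. With the 2 degraded libraries added, Mt2 alone of the members was called.

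Summed markers of several other cell types were also lower in ipsilateral sdCAM libraries. Summed endothelial markers were between 855 and 2751 CPM in contralateral and between 41.8 and 192 CPM in ipsilateral sdCAM libraries, and all 6 of these markers were called lower in the mean of both treatments. Oligodendrocyte markers went from 668 to 6096 CPM contralaterally to 225 to 817 CPM ipsilaterally, with 6 of 6 called lower, and choroid plexus markers from 194 to 55695 CPM to 7.78 to 1800 CPM, with 4 of 5. Astrocyte markers went from 250 to 1459 CPM to 174 to 587 CPM, with 4 of 6 called lower, and none of the markers of these 4 types was at 0 throughout a group. Neuron markers were between 18.5 and 107 CPM contralaterally and between 0 and 30.999 CPM ipsilaterally, with 2 of 6 called lower and Syt1 at 0 in ipsilateral BLZ945. Red blood cell markers were between 73.1 and 1159 CPM contralaterally and between 7.10 and 150 CPM ipsilaterally, with 2 of 3 called lower and Hba-a2 at 0 throughout. Border macrophage markers went the other way, with 8 of 10 called higher and a sum of 1658 to 6603 CPM contralaterally and 4929 to 10469 CPM ipsilaterally. So did microglia markers, with 2 of 8 called higher and a median sum of 14619 CPM contralaterally and 20967 CPM ipsilaterally. The median sum of monocyte markers was 215 and 410 CPM, with none called. Neutrophil, fibroblast and T and NK cell markers had lower median sums ipsilaterally, with none called. The part of these cell types in the changes of Nfe2l2, Mt1, Mt2 and the other members was not tested.

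**Figure D4:**
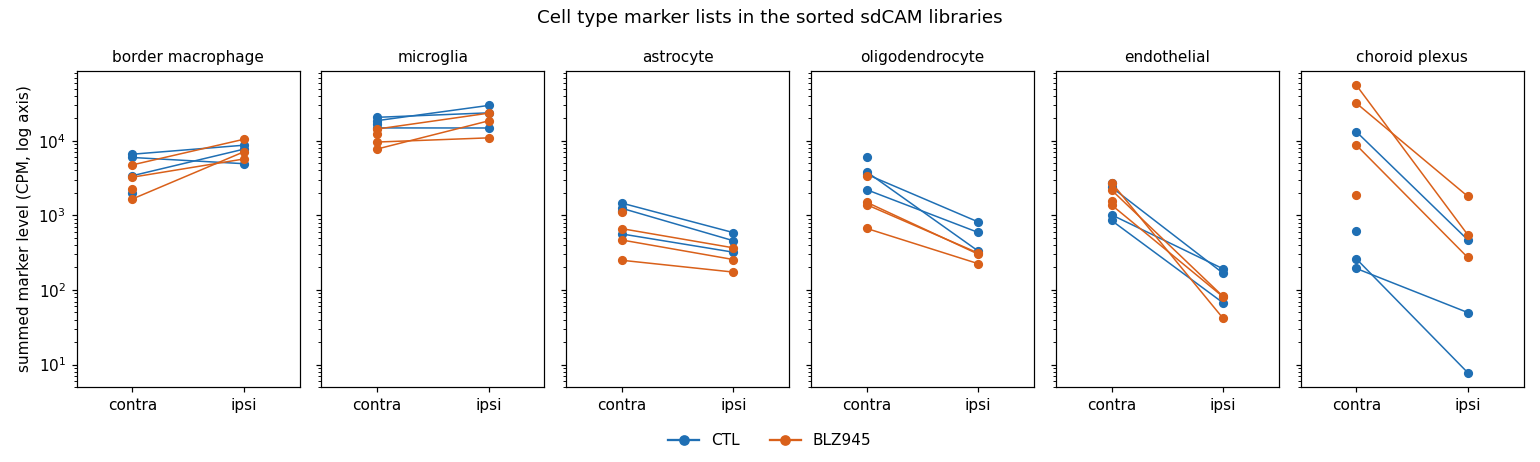
Summed level in CPM (log axis) of 6 cell type marker lists in the 14 sdCAM libraries, by hemisphere, with lines joining the hemispheres of a mouse. The highest ipsilateral endothelial sum was 192 CPM and the lowest contralateral one was 855 CPM.

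Nqo1 was low and at 0 counts in 3 of the 6 ipsilateral sdCAM libraries. It was at 11.8, 6.39, 23.97 and 3.71 CPM in contralateral and 0, 0 and 2.36 CPM in ipsilateral CTL libraries, and at 1.27, 26.1, 57.5 and 17.2 against 0, 5.65 and 8.13 CPM in BLZ945. A count of 0 allows up to 3 counts, which is 0.359 CPM in A2, 0.362 CPM in A4 and 0.341 CPM in C3, the libraries at 0, and covers counting error only. All 6 mice with both libraries were lower ipsilaterally, with a fitted log2 fold change of -3.14 ± 1.09 in the mean of both treatments that did not pass (adjusted p = 0.0615). DESeq2 called Nqo1 there (adjusted p = 0.00619), within a range of 0.0045 to 0.186 over 17 alternatives.

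The thioredoxin and glutathione members had no called change in sdCAMs. Txnrd1 was at 98.6, 70.8, 63.6 and 139 CPM in contralateral and 164, 56.3 and 263 CPM in ipsilateral CTL libraries, and at 130, 68.5, 45.9 and 175 against 127, 216 and 254 CPM in BLZ945. It was higher ipsilaterally in 5 of 6 mice, with a log2 fold change of 0.86 ± 0.34 in the mean of both treatments (adjusted p = 0.1), and passed with the mouse as a replicate block (0.85, adjusted p = 0.0343, range 0.0343 to 0.622 over 17 alternatives), although scaled to border macrophage markers its value was -0.22. Relative to the median of all genes it was 1.12 with that scaling and 1.02 with TMM, a distance that any scaling leaves about the same. Srxn1 had 0.12 ± 0.48 and Slc7a11 had -0.22 ± 0.82 on the log2 scale. Slc7a11 was at 127 CPM in ipsilateral B1, 102 CPM in ipsilateral D1 and 166 CPM in contralateral C2, but at 0.649 CPM in ipsilateral A4 and 10.3 CPM in contralateral C3. Gclc and Gclm had log2 fold changes of 0.26 ± 0.26 and -0.12 ± 0.29.

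By count, 0 members were called in CTL sdCAMs by edgeR, where 0.426% of all genes tested were higher and 2.36% lower, while 4 members had an unadjusted p under the 0.05 threshold, as did 3346 of all 18297 genes. DESeq2 called 3 members lower (Nqo1, Mt1 and Mt2), beside 321 genes higher and 1502 lower over all genes. In BLZ945 1 member was higher and none lower, beside 1.2% and 4.41% of all genes. In the mean of both treatments 1 was higher and 2 were lower, beside 4.98% and 11.2%. The median log2 fold change of the members in the mean of both treatments was 0.00, against -0.16 over all genes.

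Of 84 other genes of the pathway tested in sdCAMs, 6 were lower and none higher in CTL, 13 were lower and none higher in BLZ945, and 19 were lower and 4 higher in the mean of both treatments. Of all genes tested, 2.36% were lower and 0.426% higher in CTL, 4.41% and 1.2% in BLZ945, and 11.2% and 4.98% in the mean of both. The 4 higher of 84 are near that share of all genes. Prdx6, a peroxiredoxin abundant in astrocytes, was at 144 CPM ipsilaterally and 375 CPM contralaterally (log2 fold change -1.38 ± 0.19). The glutathione transferases Gsta4 and Gstm1 had -3.67 ± 0.52 and -1.74 ± 0.26, the microsomal transferase Mgst1 had -1.03 ± 0.18, and Mt3, the neural metallothionein, went from 107 to 9.56 CPM (-3.51 ± 0.53). The 4 called higher, named after their values were seen, were G6pdx, which supplies NADPH (0.71 ± 0.15), the zinc importer Slc39a14 (1.29 ± 0.32), the hemoglobin receptor Cd163 (1.16 ± 0.35) and the glutathione transferase Gsto1 (0.57 ± 0.19). Cd163 is also among the 10 border macrophage markers, of which 8 were called higher in the same comparison, so it is not a separate result. Lcn2, which was higher in ipsilateral tissue, was lower in ipsilateral sdCAMs (-1.75 ± 0.47, adjusted p = 0.0198). The median of the 84 genes was -0.01, against -0.16 over all genes.

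To ask whether these levels differed after repopulation, mice given BLZ945 were set against CTL mice, 1 hemisphere at a time. No member was called in tissue or sdCAMs on either side, nor in the interaction, which compares the hemisphere effect between the treatments. The share of all genes called by edgeR was 0% in each of these 6 comparisons. At an unadjusted p under the 0.05 threshold there were 858, 616 and 386 genes in tissue (ipsilateral, contralateral and interaction) and 1034, 1133 and 912 in sdCAMs. DESeq2 called no member either, and over all genes it called 1 lower in ipsilateral tissue and, in sdCAMs, 38 higher and 90 lower ipsilaterally, 35 and 9 contralaterally, and 12 and 36 in the interaction. Ipsilateral Hmox1 in tissue was 64.7 ± 19.1 CPM (SD, n = 4) in BLZ945 and 42.9 ± 12.1 CPM in CTL, and C4 at 40.4 CPM lay within the CTL range. Its log2 fold change was 0.59 ± 0.20 with an unadjusted p of 0.0101 and an adjusted p of 0.958, and the interaction was 0.28 ± 0.32. The interaction of Mt2 was 0.40 ± 0.31 in tissue and 0.43 ± 0.67 in sdCAMs, and that of Nfe2l2 was 0.15 ± 0.23 and 0.34 ± 0.31.

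Since Mt1 and Mt2 went in opposite directions in tissue and sdCAMs, the difference of the 2 log2 ratios was tested within the 6 mice that had all 4 libraries, with limma over 16959 genes. This test was chosen after seeing the data. Mt2 had a mean log2 ratio of 1.08 in tissue and -1.36 in sdCAMs, a difference of -2.44 ± 0.54 that was negative in 6 of 6 mice and had an adjusted p of 0.061, or 0.1 to 0.175 without each mouse in turn. Mt1 had a difference of -0.86 ± 0.30 (adjusted p = 0.158, negative in 6 of 6 mice), Nqo1 of -3.82 ± 1.03 (adjusted p = 0.0952) and Hmox1 of -1.99 ± 0.66 (adjusted p = 0.144, negative in 5 of 6). No member passed, while 3.97% of all genes did, and all of these 673 genes had a lower log2 ratio in sdCAMs than in tissue.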

How the data were processed

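The authors aligned 50-base single reads with STAR 2.7.11a and counted them on genes with featureCounts 2.0.8. They deposited raw counts per gene without normalization, 1 table for tissue and 1 for sdCAMs. The build used for these libraries is not given in the sources used here. Genes were kept where counts summed over libraries reached 8 in tissue or 7 in sdCAMs. Each table was fitted with edgeR 4.0.16 (TMM, quasi-likelihood test, 4 group means of treatment and hemisphere), two-sided, and called at a Benjamini-Hochberg adjusted p under 0.05. The difference of log2 ratios used limma 3.58.1, and DESeq2 1.42.0 was an alternative. SEs of edgeR values were derived from the quasi-F statistic. The edgeR fits were tested on simulated data.

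Each mouse gave both hemispheres, so the mouse numbers pair the libraries. Deviations from the group means correlated within mice with a median r of 0.262 in tissue (0.11 to 0.445, 8 mice) and 0.0957 in sdCAMs (0.0386 to 0.146, 6 mice). Each mouse is a separate replicate. The names of all libraries share a prefix, which alone does not show that they were made in a single batch.

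The members, gene lists, motifs and tests were chosen with earlier results of these data known. All 10 members are named, with at most 5 called pathway genes per comparison, except in sdCAMs in the mean of both treatments. There the 4 genes called higher and Lcn2 were named as well.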

Additional observations from a re-analysis of the deposited data

Results flagged for a closer look

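In a group of 4 libraries, a value was singled out when its gap to the nearest other value was a large share of the group's range (Dixon's 95% critical value). Chance singles out about 1 in 20 groups, and 60 groups were examined. Gclc in ipsilateral CTL tissue was at 83.2 CPM in mouse A3, against 70.3 to 71.3 CPM in the other mice. Mt2 in contralateral CTL sdCAMs was at 59.4 CPM in mouse A3, against 24.1 to 29.6 CPM in the other mice. Without A3, Mt2 was still called lower in ipsilateral sdCAMs in the mean of both treatments, at a log2 fold change of -1.39.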

How the results depend on the processing

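Counts of members called moved with several settings, and the causes were not tested. With a log2 fold change beyond 0.59, tissue gave 1 member in CTL, 3 in BLZ945 and 3 in the mean of both treatments, and a fit of CTL tissue alone gave 1. With the hemispheres of A3 exchanged, tissue gave 0, 0 and 0. In sdCAMs, DESeq2 gave 3 in CTL and 2 in BLZ945, library size only gave 1 in CTL, and all 16 libraries gave 0 in BLZ945 and 1 in the mean. Scaled to 10 border macrophage markers, an alternative chosen after seeing the data, sdCAMs gave 1, 3 and 6. It turned Nfe2l2 to -0.54 in BLZ945 and -0.39 in the mean, and Gclc to -0.96 and Srxn1 to -1.20 in the mean. Relative to the median of all genes, which this scaling put at -1.65 in BLZ945 and -1.35 in the mean, these were 1.11, 0.96, 0.39 and 0.15, against 1.07, 0.91, 0.43 and 0.29 with TMM. Since a scaling moves the median along with the genes, the likeness of these distances is no support for the calls. With the mouse as a replicate block, tissue gave 4, 7 and 7 members and sdCAMs 0, 0 and 2 (Nfe2l2 and Txnrd1), and it changed no call of a member other than those given beside the results. Leaving out each mouse gave 1 to 3 in CTL tissue, 2 to 5 in BLZ945 tissue, 5 to 7 in the mean for tissue, 0 in CTL sdCAMs, 0 to 1 in BLZ945 sdCAMs and 2 to 4 in the mean for sdCAMs. Of 2020 single values over these alternatives, 1924 kept their side of the threshold, 69 lost and 23 gained a call, and 4 changed sign with a call on either side. A sign change also occurred in values called in neither setting, so that 131 values changed sign in all.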
